A study of Mus musculus with 12 samples.

Results

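Sterol and fatty acid synthesis was followed through 36 genes, chosen by symbol from a list of pathway enzymes and regulators, of the 12483 genes counted in RAW264.7, a macrophage line from a mouse tumour. All 36 had a row and all 36 passed the filter on low counts. They comprise 19 genes of the sterol branch, 11 genes of the fatty acid branch and 6 regulators, among which the sterol carrier Stard4 was counted. Clones had been transfected with CRISPR constructs on both sides of an element named NRE1, selected on GFP and Puro and grown from single cells. The same protocol text stands at every library, so it does not tell how the wild-type clones arose. Each of 3 wild-type clones (WT 1, 2 and 3) and 3 deleted clones (KO 1A, 1B and 2) gave 1 library in medium and 1 after 6 h with 10 ng/mL LPS, a bacterial cell wall component, and 50 ng/mL IFN-gamma, a lymphocyte cytokine. The labels do not expand NRE1, and no gene of the table carries that name, so the deletion itself could not be read from the counts.

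Cholesterol is built from acetyl-CoA through mevalonate, isoprenoids, squalene and lanosterol, and fatty acids are built from the same acetyl-CoA by Acaca and Fasn and then lengthened by Elovl enzymes and desaturated by Scd and Fads enzymes. The genes of both branches are known targets of the SREBP transcription factors, which Scap escorts from the endoplasmic reticulum for cleavage when sterols are scarce and Insig proteins hold back when sterols are plentiful. In macrophages, Toll-like receptor and interferon signals are known to alter both branches.

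Total counts per library ran from 10624591 to 14388590, and levels are CPM, counts relative to the TMM-scaled size of each library. All 8 macrophage markers examined were present. Their summed level was 7900 to 19200 CPM in WT and 4360 to 13500 CPM in KO clones in medium, and 9170 to 18900 CPM and 4880 to 9660 CPM under stimulation. Of the 8, 4 rose and 1 fell in WT clones and 5 rose and 2 fell in KO clones after stimulation, and 1, Itgam, was called lower in KO clones in medium. Adgre1 was not called there, at 213, 90.7 and 55.2 CPM in WT clones and 12.4, 12.9 and 25.4 CPM in KO clones. Ptprc averaged 349 and 351 CPM, and the median log2 difference of the 8 in medium was -0.70. Lyz2 weighed most in the sums, with means in medium of 10000 CPM in WT and 4820 CPM in KO clones. Of 12 markers of other cell types, 10 had no row in the table analysed. The remaining pair, Pecam1 and S100a8, summed to between 0.0622 and 1.01 CPM in medium and between 0.665 and 4.06 CPM under stimulation, and Pecam1 rose in both genotypes. The part of these markers in the results was not tested. The 4 genes used to check stimulation, Nos2, Tnf, Cxcl10 and Gbp2, summed to 101 to 154 CPM in medium and 4620 to 6530 CPM after LPS/IFN-gamma. KO 1A and KO 1B lay closer together than any other pair of clones, since their chi-square over genes, divided by its degrees of freedom, came to 6.43 (medium) and 4.52 (stimulated), against 24.0 to 74.02 for the other pairs within a group. Their counts still differed by more than sampling noise, and the labels do not say how the clones are related, so calls that involve KO clones are also given without KO 1A, without KO 1B or with the pair summed where this changes them. In bulk RNA, fewer cells expressing a gene and less of its RNA per cell cannot be told apart.

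Expressed per kilobase of exon in WT clones in medium, the fatty acid branch held the highest levels. Acly, which makes cytosolic acetyl-CoA from citrate, led with 69.6 CPM per kb, and its lowest clone at 65.9 CPM per kb lay above every clone of every other member. The next ranks, Fads1, Scd2, Elovl5, Fads2 and Fasn, stood between 45.4 and 33.2 CPM per kb and each overlapped its neighbours in this order over the clones. The highest sterol gene was Cyp51, lanosterol demethylase, at 25.2 CPM per kb. The lowest members were Scd1 at 1.6, Acss2 at 0.988 and Idi1 at 0.808 CPM per kb.

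After LPS/IFN-gamma, the fatty acid branch fell in WT clones and in KO clones, most of all its desaturases and elongases, while the sterol branch was split. Calls use edgeR's quasi-likelihood test with Benjamini-Hochberg adjustment over 12231 genes, at an adjusted p below 0.05. In WT clones, 1 of 11 fatty acid genes rose and 5 fell, and 1 of 19 sterol genes rose and 4 fell. Over all genes tested, 23.8% rose and 23.6% fell in the WT response. In KO clones, 2 of 11 fatty acid genes rose and 6 fell, and 7 of 19 sterol genes rose and 2 fell, where 26.7% of all genes rose and 27.6% fell. The median log2 fold change of the fatty acid branch was -1.07 in WT clones and -0.74 in KO clones, and that of the sterol branch was -0.02 in WT clones and 0.41 in KO clones, beside -0.01 over all genes in both responses. With library totals in place of TMM factors the median of all genes moved to -0.37 in WT clones and -0.39 in KO clones. On that scale the sterol medians were -0.37 and 0.03, so relative to all genes the order of the branches stayed as given, whereas 3 sterol genes were called higher and 5 lower in KO clones. Fatty acid genes called were then 0 higher and 6 lower in WT clones and 0 higher and 7 lower in KO clones. The shares of all genes called on that scale were not counted, so these counts have no background beside them.

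**Figure D1:**
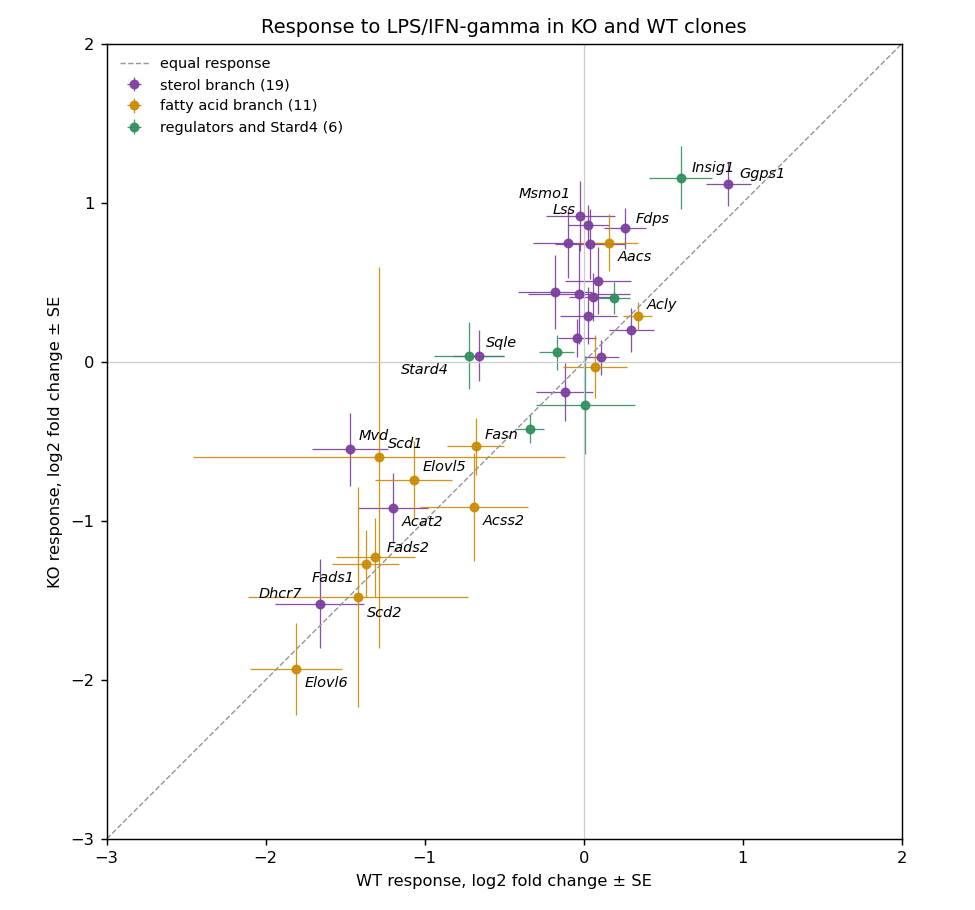
Log2 fold change of the 36 genes after LPS/IFN-gamma in KO clones (vertical axis) against WT clones (horizontal axis), each ± SE from the fit over 12 libraries, coloured by branch, with a dashed line of equal response. Elovl6 (-1.81 in WT, -1.93 in KO), Fads1 and Fads2 lie near the line, Scd1 (-1.29 and -0.60) lies above it with a wide error, and many sterol genes lie above it.

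Among the desaturases and elongases, all 6 genes had negative responses in all 6 clones. The share of all genes negative in every clone was not counted, and in each clone 48.7% to 49.5% of all genes were higher. Called lower were 4 of the 6 in WT clones and 4 in KO clones, where 23.6% and 27.6% of all genes were. Elovl6, which lengthens palmitate-sized chains (chr3:129532355-129638495, plus strand, GRCm38), stood at 78.5, 67 and 80.9 CPM in medium in WT 1, 2 and 3 and at 28.8, 19.8 and 15.8 CPM under stimulation. In KO 1A, 1B and 2 it stood at 86.2, 91.3 and 72.6 CPM in medium and at 23, 29.8 and 12.5 CPM under stimulation. Medium and stimulated libraries did not overlap in either genotype. The log2 fold change was -1.81 ± 0.29 (SE; adjusted p = 0.00051) in WT clones and -1.93 ± 0.29 (adjusted p = 0.00027) in KO clones, the lowest of the 36 genes in both.

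Fads1 and Fads2 encode the desaturases that make long polyunsaturated fatty acids, and they lie on chromosome 19 (GRCm38, chr19:10182888-10196877 on the plus strand and chr19:10062765-10101746 on the minus strand). Fads1 went from 166, 299 and 191 CPM in medium to 98.8, 78.4 and 76.1 CPM under stimulation in WT 1, 2 and 3. In KO 1A, 1B and 2 it went from 109, 115 and 119 CPM to 49.5, 53.8 and 38.6 CPM. Every KO library was below every WT library of its own condition. Fads2 went from 89.4, 139 and 131 CPM to 61.1, 39.9 and 43.3 CPM in WT clones, and from 49.7, 59.2 and 40.9 CPM to 22.9, 25.9 and 14.8 CPM in KO clones. Here too the KO libraries were all below the WT libraries of the same condition. KO 1A and 1B count as separate clones in this, and the share of all genes without overlap was not counted. Fads1 fell by 1.37 ± 0.21 on the log2 scale in WT clones (adjusted p = 0.00037) and by 1.27 ± 0.21 in KO clones (adjusted p = 0.00047), and Fads2 fell by 1.31 ± 0.25 (adjusted p = 0.0015) and by 1.23 ± 0.25 (adjusted p = 0.0019).

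Elovl5, an elongase of polyunsaturated chains, went from 145, 129 and 166 CPM to 98.1, 44.7 and 66.7 CPM in WT 1, 2 and 3 and from 140, 145 and 140 CPM to 92.1, 95.7 and 66.5 CPM in KO 1A, 1B and 2. It fell by 1.07 ± 0.24 in WT clones (adjusted p = 0.0042) and by 0.74 ± 0.24 in KO clones (adjusted p = 0.023). The KO call was lost without any single KO clone, with adjusted p between 0.073 and 0.14. Scd1 and Scd2, the stearoyl-CoA desaturases, varied most between clones. In medium Scd2 ranged from 124 to 334 CPM over WT clones and from 73.1 to 286 CPM over KO clones, and Scd1 from 2.17 to 17.2 CPM and from 1.32 to 5.17 CPM. Under stimulation Scd2 stood at 33.3 to 119 CPM in WT clones and 24.3 to 109 CPM in KO clones. Neither gene was called with all clones, TMM scaling and no clone block (adjusted p = 0.12 for Scd2 in WT and 0.094 in KO clones). Scd2 was called in WT clones without KO 2 (adjusted p = 0.043) and in KO clones with library totals alone (adjusted p = 0.044). When clone entered the fit as a block, 8 of 11 fatty acid genes were called lower in WT clones, where 31.4% of all genes were, with Scd1 (adjusted p = 0.01), Scd2 (adjusted p = 5.1e-05) and Acss2 (adjusted p = 0.01) added. Scd2 was then called in KO clones as well (adjusted p = 4e-05).

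At the start of the branch, the enzymes that supply acetyl-CoA and build palmitate did not move together. Fasn, fatty acid synthase, stood at 384, 348 and 358 CPM in medium and at 257, 192 and 229 CPM under stimulation in WT 1, 2 and 3. KO 1A, 1B and 2 had 495, 484 and 336 CPM in medium and 312, 353 and 245 CPM. Fasn fell by 0.68 ± 0.18 in WT clones (adjusted p = 0.0089) and by 0.53 ± 0.18 in KO clones (adjusted p = 0.026), with lower levels after stimulation in all 6 clones. Acly rose by 0.34 ± 0.09 (adjusted p = 0.013) and 0.29 ± 0.09 (adjusted p = 0.022), and with library totals alone its fold change was -0.02 in WT clones and -0.09 in KO clones. Acaca, acetyl-CoA carboxylase, was not called, at 0.07 ± 0.20 and -0.03 ± 0.20. Acss2, which makes acetyl-CoA from acetate, was called in KO clones (-0.91 ± 0.34, adjusted p = 0.041) but not in WT clones (-0.69 ± 0.34, adjusted p = 0.12). Leaving out any KO clone took the KO calls of Acss2 and Acly away (adjusted p of 0.1 to 0.21 and 0.068 to 0.15), and that of Fasn was lost without KO 1A (0.16) or KO 1B (0.064). Without WT 3 the KO call of Acss2 was lost as well (0.052), and without WT 1 the WT call of Acly was (0.095).

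Aacs, which activates acetoacetate for lipid synthesis, stood apart from the rest of the branch. It went from 33.3, 51.5 and 34.5 CPM to 35.5, 49.1 and 48.4 CPM in WT 1, 2 and 3, with no common direction. Clones KO 1A, 1B and 2 went from 38.2, 36.8 and 45.4 CPM to 68.3, 65.5 and 69 CPM. The KO libraries in medium lay within the range of the WT clones, and under stimulation all lay above it. The log2 fold change was 0.16 ± 0.18 in WT clones (adjusted p = 0.5) and 0.75 ± 0.18 in KO clones (adjusted p = 0.0046). The KO call was lost with library totals alone (0.37, adjusted p = 0.077).

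**Figure D2:**
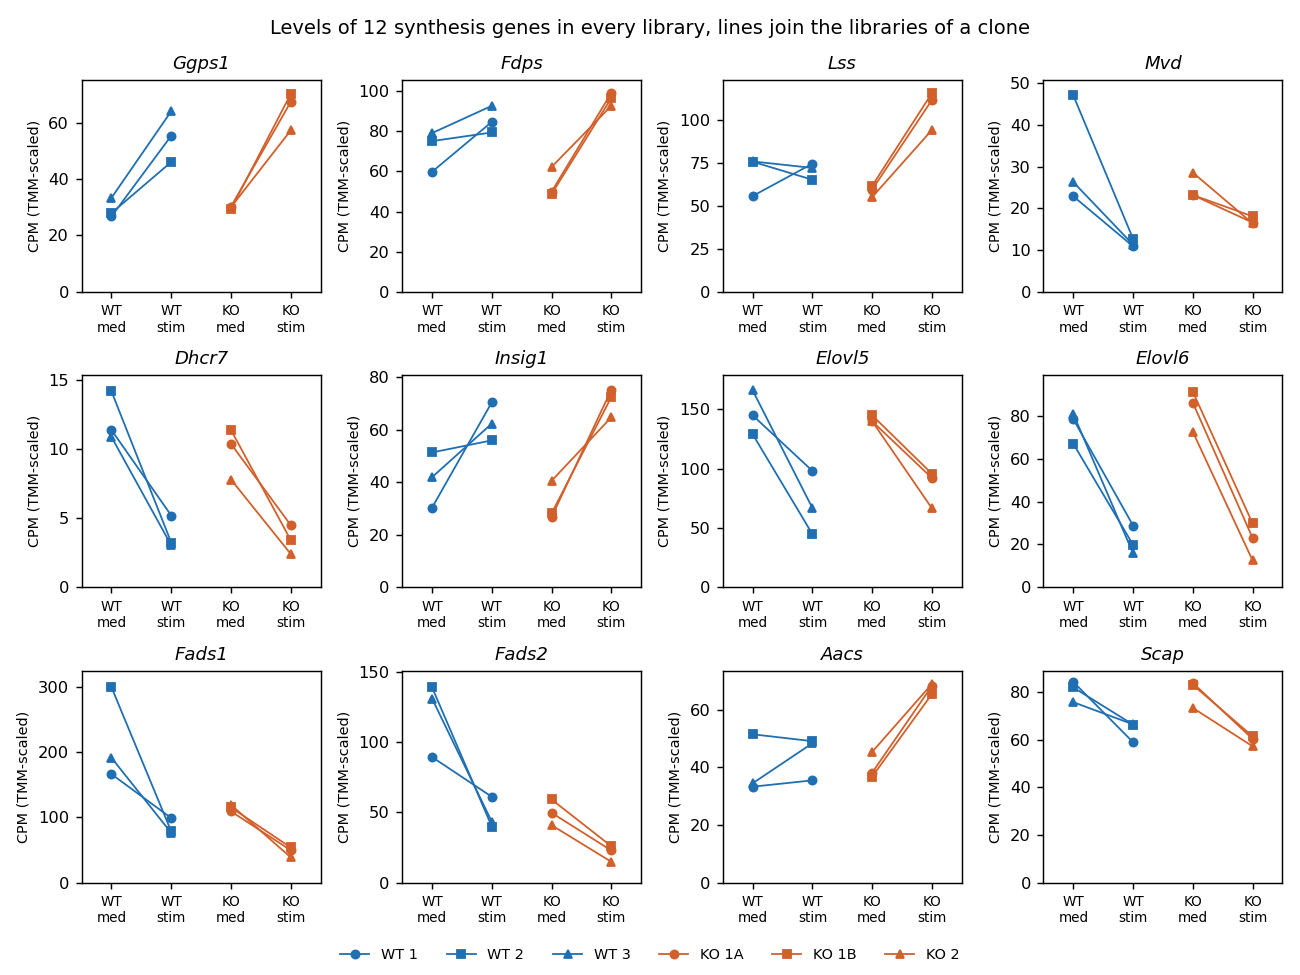
CPM on TMM-scaled library sizes of 12 genes in each of the 12 libraries, from 0 upward, with a line joining the medium (med) and stimulated (stim) library of a clone. Blue marks WT clones and orange KO clones. Lss reaches 94.5 to 116 CPM in stimulated KO libraries against 65.4 to 74.8 CPM in stimulated WT libraries, and Fads1 and Fads2 are lower in KO than in WT clones in both conditions.

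In the mevalonate arm, genes rose, fell and held their level side by side. Ggps1, which makes the geranylgeranyl donor for protein prenylation (chr13:14050659-14063488, minus strand), went from 26.7, 27.9 and 33.3 CPM to 55.3, 46 and 64 CPM in WT 1, 2 and 3. In KO 1A, 1B and 2 it went from 30.2, 29.3 and 30 CPM to 67.3, 70.1 and 57.2 CPM. Stimulated libraries were above medium libraries in every clone, with a log2 fold change of 0.91 ± 0.14 in WT clones (adjusted p = 0.00034) and 1.12 ± 0.14 in KO clones (adjusted p = 6.5e-05). Ggps1 was the only one of the 19 sterol genes called higher in WT clones with all clones kept. Without WT 3, Pmvk, phosphomevalonate kinase, was called as well (0.45, adjusted p = 0.023).

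Fdps, which makes the farnesyl donor just before the sterol and prenyl routes part, went from 59.8, 75.1 and 79.1 CPM to 84.7, 79.4 and 92.7 CPM in WT clones and from 49.9, 48.7 and 62.2 CPM to 99.1, 96.6 and 92.7 CPM in KO clones. It had the higher level under stimulation in all 6 clones, and the steepest lines belonged to KO clones. The log2 fold change was 0.26 ± 0.13 in WT clones (adjusted p = 0.11) and 0.84 ± 0.13 in KO clones (adjusted p = 0.00028). Of its exon length, 26.7% is shared with the predicted gene Gm43738 on the same strand, so reads of that stretch cannot be assigned to either gene.

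Mvd, the mevalonate diphosphate decarboxylase, fell by 1.47 ± 0.24 in WT clones (adjusted p = 0.00053), from 22.9, 47.1 and 26.3 CPM to 10.9, 12.7 and 11.3 CPM. In KO clones it went from 23.2, 23.2 and 28.6 CPM to 16.6, 18.1 and 16.4 CPM, a log2 fold change of -0.55 ± 0.23 that was not called (adjusted p = 0.064). It was called with a clone block (adjusted p = 0.014), with library totals alone (0.0044) and without WT 1 (0.045) or WT 2 (0.0037). WT 2 in medium stood above all other libraries for Mvd. Among medium libraries it also held the highest level of Hmgcs1, Mvk, Pmvk, Idi1, Fdft1, Sqle, Cyp51, Msmo1, Nsdhl, Hsd17b7, Sc5d and Dhcr7. It did not for Acat2, Fdps, Ggps1, Lss and Ebp, and for Tm7sf2 it stood level with KO 2 at 9.87 CPM. Acat2, the cytosolic thiolase of the first step, fell by 1.20 ± 0.22 in WT clones (adjusted p = 0.0013) and by 0.92 ± 0.22 in KO clones (adjusted p = 0.0052). Hmgcs1, HMG-CoA synthase, went from 66.4, 126 and 78.5 CPM to 86.2, 82.6 and 110 CPM in WT clones and from 71.8, 70.5 and 92.6 CPM to 141, 130 and 121 CPM in KO clones, falling in WT 2 alone. Its log2 fold change was 0.04 ± 0.22 in WT clones and 0.74 ± 0.22 in KO clones (adjusted p = 0.014). The kinases Mvk and Pmvk and the isomerase Idi1 were not called in either genotype with all clones kept and TMM scaling.

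From squalene to cholesterol, no gene was called higher in WT clones and 4 of 11 rose in KO clones, beside the 26.7% of all genes given above. Lss, which closes squalene epoxide into lanosterol (chr10:76531588-76557138, plus strand), went from 55.9, 75.9 and 76.1 CPM to 74.8, 65.4 and 72.3 CPM in WT 1, 2 and 3, rising in WT 1 alone. In KO 1A, 1B and 2 it went from 59.7, 61.9 and 55.3 CPM to 112, 116 and 94.5 CPM, a fold of 1.82 over the group. The log2 fold change was 0.03 ± 0.13 in WT clones (adjusted p = 0.86) and 0.86 ± 0.13 in KO clones (adjusted p = 0.00028). Msmo1, the methylsterol oxidase, went from 86.7, 150 and 102 CPM to 123, 101 and 111 CPM in WT clones and from 62.8, 67.5 and 101 CPM to 161, 153 and 124 CPM in KO clones. It was at -0.02 ± 0.22 in WT clones and rose by 0.92 ± 0.22 in KO clones (adjusted p = 0.0053). Fdft1, squalene synthase, was at -0.10 ± 0.22 and rose by 0.75 ± 0.22 (adjusted p = 0.015), and Sc5d, a sterol desaturase, was at 0.06 ± 0.15 and rose by 0.41 ± 0.15 (adjusted p = 0.039). With library totals alone these 3 calls were lost, at 0.55 (adjusted p = 0.053) for Msmo1, 0.37 (0.16) for Fdft1 and 0.03 (0.88) for Sc5d, and so was that of Hmgcs1 (0.36, adjusted p = 0.16). Of the exon length of Fdft1, 18.3% overlaps Ctsb on the opposite strand. Strandedness is not given, so how reads of that stretch were counted is not known. Sqle, squalene epoxidase, showed the reverse pattern of calls, falling by 0.66 ± 0.16 in WT clones (adjusted p = 0.0072) with 0.04 ± 0.16 in KO clones. Hsd17b7, a ketosteroid reductase, was not called in KO clones (0.51 ± 0.21, adjusted p = 0.063). It was called there with a clone block (adjusted p = 0.00088), by DESeq2 (0.039) and without WT 2 (0.021) or WT 3 (0.026).

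Dhcr7, the reductase that yields cholesterol from its immediate precursor, fell in both genotypes, unlike the 4 genes of this arm that rose in KO clones. It fell from 11.4, 14.2 and 10.9 CPM to 5.2, 3.24 and 3.04 CPM in WT 1, 2 and 3, and from 10.4, 11.4 and 7.81 CPM to 4.5, 3.42 and 2.41 CPM in KO 1A, 1B and 2. Every stimulated library was below every medium library. The log2 fold change was -1.66 ± 0.28 in WT clones (adjusted p = 0.00064) and -1.52 ± 0.28 in KO clones (adjusted p = 0.00094). The other sterol enzymes of this arm, Cyp51, Tm7sf2, Nsdhl and Ebp, were not called in either genotype with TMM scaling.

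The 7 calls of sterol genes higher in KO clones depended on the pair of similar clones, KO 1A and KO 1B. Without KO 1A, without KO 1B, or with their counts summed as 1 clone, 3 remained higher, namely Fdps, Ggps1 and Lss. Hmgcs1, Fdft1, Msmo1 and Sc5d then had adjusted p of 0.061 to 0.3, with fold changes that stayed positive. The 6 fatty acid calls lower in KO clones also went to 3 in each of these fits, namely Elovl6, Fads1 and Fads2. The Sc5d call was lost without WT 3 too (adjusted p = 0.051), and in WT clones the Sqle call was lost without WT 2 (adjusted p = 0.057).

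**Figure D3:**
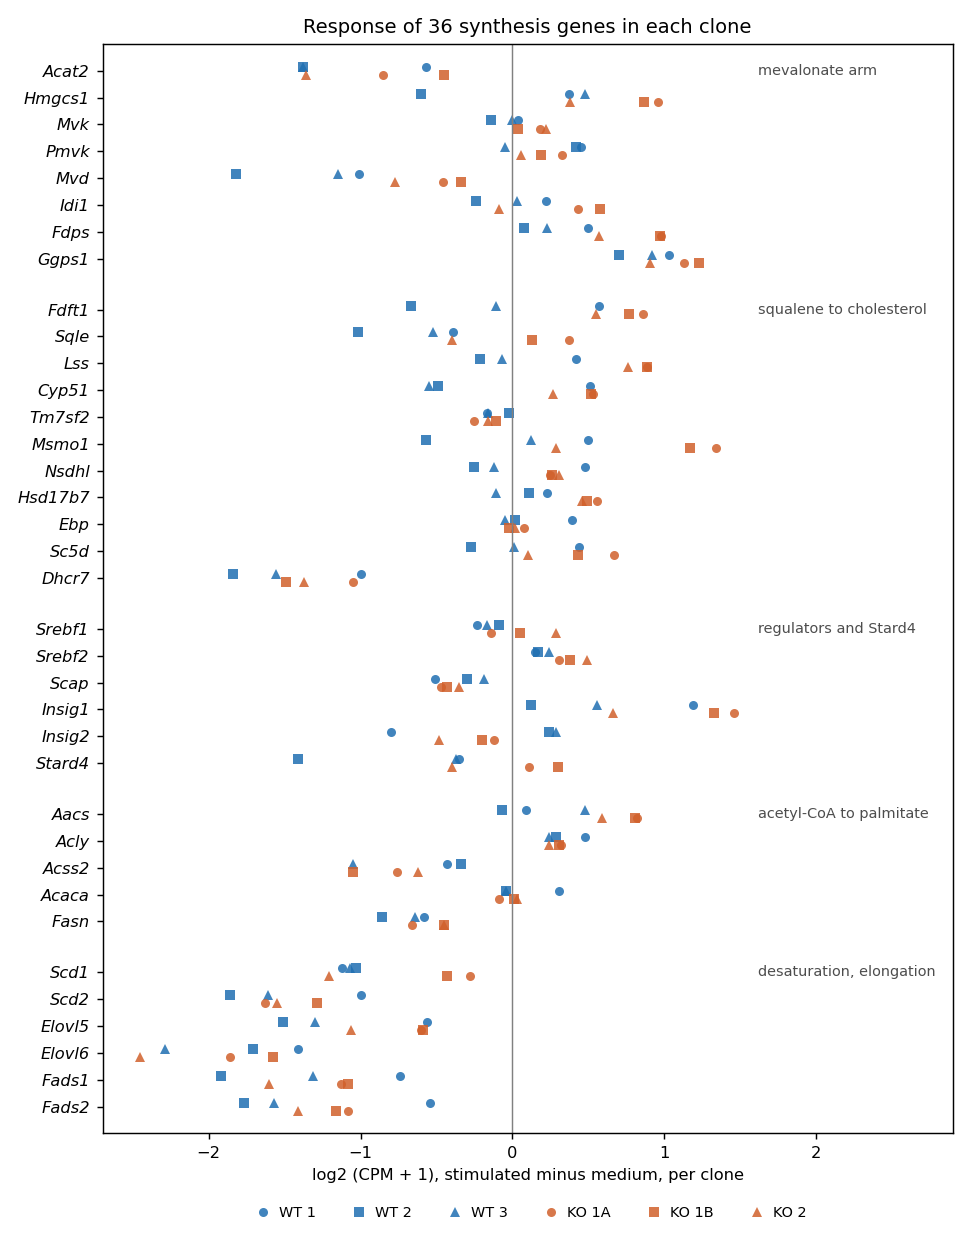
Response of each of the 36 genes in each clone, as the difference in log2 (CPM + 1) between the stimulated and the medium library, with genes grouped by step. Circles, squares and triangles are WT 1, 2 and 3 in blue and KO 1A, 1B and 2 in orange. All 6 desaturation and elongation genes lie left of 0 in every clone, and the sterol genes of WT clones spread on both sides of 0. The share of all genes left of 0 in every clone was not counted.

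Clone by clone, the fatty acid branch had a negative median in every clone, from -0.56 in WT 1 to -1.07 in WT 3, on the log2 (CPM + 1) scale. The sterol branch had medians of 0.39 in WT 1, -0.25 in WT 2 and -0.07 in WT 3, and of 0.43, 0.43 and 0.22 in KO 1A, 1B and 2. WT 1 therefore lay with the KO clones on this measure. Between 13 and 15 of the 19 sterol genes were higher after stimulation in each KO clone and in 14 in WT 1, against 5 in WT 2 and 7 in WT 3. The median over all genes lay between -0.03 and -0.01 in every clone, and 48.7% to 49.5% of all genes were higher. With library totals alone, that median lay between -0.39 and -0.32, and 28.8% to 32.3% of all genes were higher. The sterol counts then became 10, 10 and 5 in KO 1A, 1B and 2 (52.6%, 52.6% and 26.3%). In WT 1, 2 and 3 they became 11, 2 and 2 (57.9%, 10.5% and 10.5%). The count of KO 2 was thus near the 29.7% of all genes higher in that clone, and its sterol median turned to -0.18.

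Summed over its 19 genes, the sterol branch went from 742.9, 1106 and 853.7 CPM in medium to 914.9, 842.3 and 821.5 CPM under stimulation in WT 1, 2 and 3. In KO 1A, 1B and 2 it went from 648.8, 666.5 and 777.1 CPM to 1041, 1020 and 927.3 CPM. On this scale the sum rose in all KO clones and in WT 1. With library totals alone it rose in KO 1A and KO 1B only, from 760.6 to 939.2 CPM and from 774.7 to 935.6 CPM, and it fell in KO 2 from 889.7 to 793.6 CPM and in WT 1 from 837.4 to 808.8 CPM. Summed over 11 genes, the fatty acid branch fell in all 6 clones on both scales, with TMM scaling from between 1295 and 1785 CPM to between 939.4 and 1331 CPM.

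**Figure D4:**
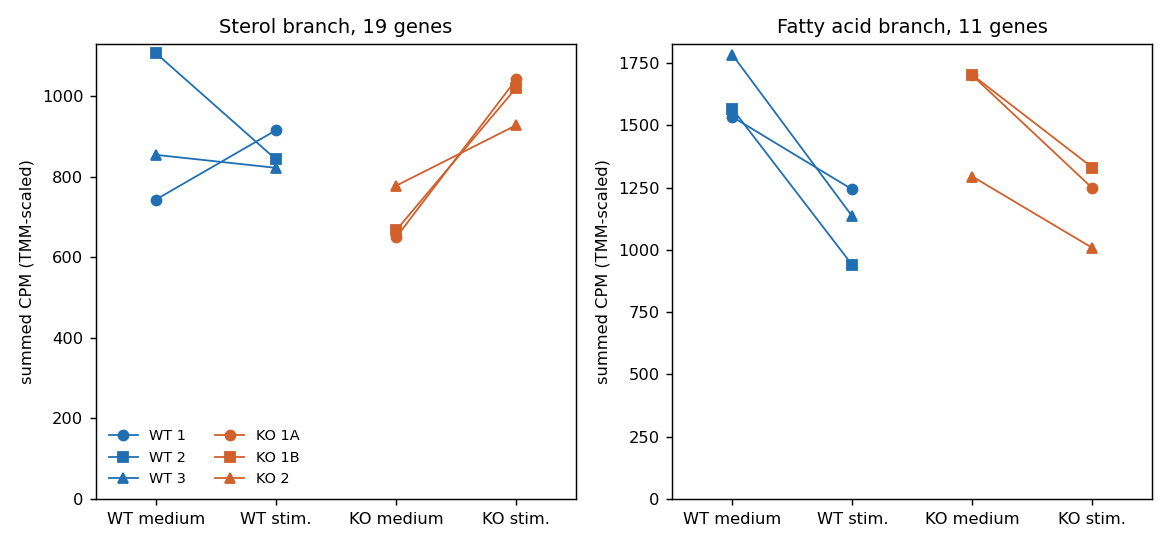
Summed CPM of the 19 sterol genes and of the 11 fatty acid genes in each library, with a line joining the libraries of a clone. With this TMM scaling the sterol sum rises in WT 1 and all KO clones and falls in WT 2 and WT 3, and the fatty acid sum falls in every clone, to 1008 CPM in KO 2 at the lower end of the KO clones.

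Among the regulators, Insig1, itself a known SREBP target, rose and Scap fell. Insig1 went from 30.3, 51.3 and 41.9 CPM to 70.4, 55.9 and 62.3 CPM in WT 1, 2 and 3, and from 26.7, 28.1 and 40.5 CPM to 75.2, 72.4 and 64.7 CPM in KO 1A, 1B and 2. All stimulated libraries were above all medium libraries. The log2 fold change was 0.61 ± 0.20 in WT clones (adjusted p = 0.028) and 1.16 ± 0.20 in KO clones (adjusted p = 0.00071). The WT call was lost with library totals alone (0.26, adjusted p = 0.3) and without WT 1, WT 3 or KO 1B (adjusted p of 0.21, 0.096 and 0.051).

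Scap went from 84.2, 81.9 and 75.7 CPM to 58.9, 66.3 and 66.4 CPM in WT clones and from 83.8, 83 and 73.3 CPM to 60.3, 61.4 and 57.2 CPM in KO clones. It was lower after stimulation in all 6 clones, by 0.34 ± 0.09 in WT clones (adjusted p = 0.011, and 0.095 without WT 1) and by 0.42 ± 0.09 in KO clones (adjusted p = 0.0024). Of the SREBP genes themselves, Srebf2, the form tied to sterol synthesis, was at 0.19 ± 0.10 in WT clones and rose by 0.40 ± 0.10 in KO clones (adjusted p = 0.005), which became 0.02 with library totals alone. Without KO 2 that call was lost (adjusted p = 0.051). Srebf1, the form tied to fatty acid synthesis, was not called at -0.17 ± 0.11 and 0.06 ± 0.11. Insig2 was not called either. Stard4, a cytosolic sterol carrier, fell by 0.72 ± 0.22 in WT clones (adjusted p = 0.018, and 0.14 without WT 2) and was at 0.04 ± 0.21 in KO clones.

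Between genotypes, few members were called. In medium, 0 of the 36 genes were higher in KO clones and 1, Fads2, was lower, where 0.352% of all genes were higher and 0.858% lower. Fads2 was lower by a log2 difference of -1.26 ± 0.25 (adjusted p = 0.038), and Fads1 just missed the threshold at -0.93 ± 0.21 (adjusted p = 0.058). The Fads2 call held without WT 1, where Fads1 was called too (adjusted p = 0.03). Without any other single clone the adjusted p of Fads2 lay between 0.064 and 0.3, and with library totals alone it was 0.058. DESeq2 called both genes, Fads1 with an adjusted p of 0.0017. Of the 19 sterol genes, 18 had a negative difference in medium, and over the 19 the median was -0.23 with a range from -0.57 for Hsd17b7 to 0.03 for Ggps1. Over all genes 51.6% had a negative difference, and the median was -0.01. With KO 1A and 1B summed, 17 of the 19 were negative. With each clone left out in turn, the number ran from 15 without WT 2 (median -0.18) to 19 without WT 1 (median -0.38). WT 2 in medium held the highest medium level of many sterol genes, as given above, so these differences are not separate from each other. None of the 18 was called, and the smallest adjusted p among them was 0.16, for Fdps.

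Under stimulation, Lss was higher in KO clones (0.60 ± 0.13, adjusted p = 0.029), and Fads1 (-0.84 ± 0.21, adjusted p = 0.048) and Fads2 (-1.18 ± 0.25, adjusted p = 0.028) were lower. Over all genes, 1.13% were higher and 3.51% lower. The libraries of the 2 genotypes did not overlap for any of the 3 genes. This adds nothing to the calls, since the genes were picked by their calls in the same libraries. KO 1A and 1B enter as separate clones, and the share of all genes without overlap was not counted. With KO 1A and KO 1B summed, adjusted p was 0.19 for Lss, 0.21 for Fads1 and 0.14 for Fads2, and all 3 calls were also lost without KO 1A or without KO 1B. Without KO 2 the Fads1 and Fads2 calls were lost (0.15 and 0.073). Of the WT clones, leaving out WT 1 took away Fads1 (0.084) and Fads2 (0.054), leaving out WT 2 took away Lss (0.064), and leaving out WT 3 took away Fads1 (0.051). Fads1 was also lost with RLE size factors (0.05) and with library totals alone (0.062). Aacs missed the threshold (0.61 ± 0.18, adjusted p = 0.081) but was called higher by DESeq2 (0.022) and without WT 2 (0.03), where Mvd was called as well (0.63, adjusted p = 0.046). The genotype comparisons share libraries with the responses and with the difference of responses, so their values are given side by side and not as separate evidence.

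The genotype difference in response is the KO response less the WT response. Its test in edgeR without a clone block called none of the 36 genes, and 0% of all genes higher or lower. In that fit 611 of all genes had an unadjusted p below 0.05. At an unadjusted p below 0.05, 9 of the 36 genes were higher and 0 lower, where 2.17% of all genes were higher and 2.83% lower. Those 9 were Hmgcs1, Mvd, Fdps, Fdft1, Sqle, Lss, Msmo1, Stard4 and Aacs, with log2 differences between 0.58 and 0.94. Lss had the smallest adjusted p, 0.59 (difference 0.83 ± 0.19), and DESeq2, which called 28 genes of the whole table, called it at an adjusted p of 0.034. With a clone block, which called 40 genes of the whole table, its adjusted p was 0.085. The count of 9 depended on single clones. It was 13, 4 and 8 without WT 1, 2 and 3, 10 without KO 2, 1 without KO 1A, 2 without KO 1B and 2 with their counts summed. With a clone block it was 8, all higher. The background was larger there, since 1418 of 12231 genes had an unadjusted p below 0.05, against 611 without a block.

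Of the 19 sterol genes, 16 had a positive difference of responses, with a median of 0.42, where 47.9% of all genes were positive and the median was -0.01. With KO 1A and 1B summed, 16 were positive as well, with a median of 0.36. With each clone left out in turn, 15 to 17 were positive. The median then ran from 0.31 without WT 2 to 0.55 without WT 1. The fatty acid branch had 6 of 11 positive and a median of 0.08. For 7 of the 36 genes, namely Mvk, Mvd, Fdps, Lss, Hsd17b7, Srebf2 and Aacs, the responses of all KO clones lay above those of all WT clones, as they did for 8.27% of all genes. For 0 of the 36 genes they lay below, where 9.82% of all genes did. Clones KO 1A and 1B enter both counts as separate clones, and these counts were not made without them.

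The promoters of the genes were searched for letters known from SREBP-driven genes. RefSeq gives a promoter window of 250 bases before and 50 after the start site on GRCm38.p6 for 29 of the 36 genes. The sterol regulatory element, searched as TCACNCCAC on both strands, was found in 1 of the 29, Hmgcs1, beginning 137 bases before the start site, against 1.44% of all genes with a window and 1.24% of the 32851 windows of the whole table. The NF-Y letters CCAAT, bound by a factor known to work beside SREBP, were found on either strand in 23 of the 29 genes. By branch these were 15 of 16 sterol genes, 4 of 8 fatty acid genes and 4 of 5 regulators, against 41.1% of all genes with a window and 37.4% of all windows. A match describes the letters of the window and not binding, and no match says only that these letters are not in it.

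The promoters of 6 genes are printed, to set sterol genes that rose in KO clones or fell in WT clones beside fatty acid genes that fell. Each is the stretch of 250 bases before the start site on GRCm38.p6 from RefSeq, in the direction of the gene, with matches in capitals. TCACCCCAC is the sterol element, and CCAAT or its reverse complement ATTGG the NF-Y letters.
Hmgcs1 (chr13:119690101-119690350, plus strand): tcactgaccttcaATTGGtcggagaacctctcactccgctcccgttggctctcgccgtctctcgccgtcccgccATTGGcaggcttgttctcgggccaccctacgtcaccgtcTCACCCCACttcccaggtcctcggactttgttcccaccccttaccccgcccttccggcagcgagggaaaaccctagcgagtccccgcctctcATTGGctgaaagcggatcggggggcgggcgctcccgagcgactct
Lss (chr10:76531355-76531604, plus strand): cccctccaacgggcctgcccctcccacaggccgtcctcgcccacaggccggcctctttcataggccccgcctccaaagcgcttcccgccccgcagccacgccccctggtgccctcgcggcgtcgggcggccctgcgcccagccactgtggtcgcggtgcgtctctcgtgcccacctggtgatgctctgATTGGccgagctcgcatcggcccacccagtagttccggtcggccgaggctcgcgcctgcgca
Mvd (chr8:122443423-122443672, minus strand): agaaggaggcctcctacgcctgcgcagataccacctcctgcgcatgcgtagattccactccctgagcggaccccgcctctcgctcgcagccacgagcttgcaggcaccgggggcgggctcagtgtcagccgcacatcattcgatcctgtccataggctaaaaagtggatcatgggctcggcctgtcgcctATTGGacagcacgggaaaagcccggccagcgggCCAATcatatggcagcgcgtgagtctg
Fasn (chr11:120824548-120824797, minus strand): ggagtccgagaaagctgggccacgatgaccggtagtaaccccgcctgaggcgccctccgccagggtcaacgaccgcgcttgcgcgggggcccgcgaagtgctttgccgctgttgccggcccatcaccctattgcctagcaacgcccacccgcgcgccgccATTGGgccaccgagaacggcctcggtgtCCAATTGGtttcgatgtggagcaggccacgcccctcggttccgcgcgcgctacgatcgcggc
Elovl6 (chr3:129532136-129532385, plus strand): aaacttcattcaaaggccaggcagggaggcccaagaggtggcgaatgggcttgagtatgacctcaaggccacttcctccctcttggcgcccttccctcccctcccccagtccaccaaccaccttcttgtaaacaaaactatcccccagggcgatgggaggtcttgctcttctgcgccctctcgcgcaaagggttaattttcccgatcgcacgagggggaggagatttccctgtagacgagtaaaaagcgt
Fads2 (chr19:10101504-10101753, minus strand): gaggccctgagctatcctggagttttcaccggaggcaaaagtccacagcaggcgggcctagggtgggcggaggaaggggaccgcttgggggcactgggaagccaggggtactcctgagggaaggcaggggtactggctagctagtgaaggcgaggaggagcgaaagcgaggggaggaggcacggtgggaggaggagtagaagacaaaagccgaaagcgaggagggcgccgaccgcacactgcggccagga
Hmgcs1 holds the NF-Y letters 3 times in this stretch, Lss once, Mvd on both strands and Fasn 3 times, where a CCAAT and an ATTGG overlap. The stretches of Elovl6 and Fads2, the genes with large falls in both genotypes, hold neither set of letters. Dhcr7 and Elovl5, which also fell in both genotypes, do hold the NF-Y letters in a window. The other genes whose windows hold neither set of letters did not move together. Acat2 and Scap fell in both genotypes, Aacs rose in KO clones and Acaca was not called. RefSeq gave no window for Fads1, Scd1 and Scd2. Whether the letters go with the responses was not tested.

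Outside the 36 genes, 6 further lists of the lipid pathway were read in the same fit. Their counts stand beside 23.8% of all genes higher and 23.6% lower in WT clones and 26.7% and 27.6% in KO clones, and several lie near these shares. Of 10 genes for SREBP cleavage and sterol-linked protein degradation, 5 rose and 2 fell in WT clones and 4 rose and 1 fell in KO clones. Rnf139, a sterol-sensing ubiquitin ligase of the endoplasmic reticulum, rose by 1.13 ± 0.13 and 0.95 ± 0.13 (adjusted p = 5.7e-05 and 0.00012). Mbtps1, the site-1 protease that cleaves SREBP, fell by 0.54 ± 0.10 in both genotypes (adjusted p = 0.00096 and 0.0007). Of 7 genes analysed for oxysterols and sterol esters, 2 rose and 2 fell in each genotype. Ch25h, cholesterol 25-hydroxylase, whose product is known to block SREBP processing, had 8 counts over the 3 medium libraries and 97 over the stimulated libraries of WT clones, a ratio of 16.5 (95% counting interval 8.05 to 39.3). The clones differed, from 2 to 38 counts in WT 1, from 6 to 9 in WT 2 and from 0 to 50 in WT 3. The pooled ratio and its interval therefore do not describe each WT clone. In KO clones Ch25h had 0 and 76 counts, and the same 95% interval begins at a ratio of 27.8. Cyp27a1, sterol 27-hydroxylase, fell by 1.90 ± 0.24 in WT clones (adjusted p = 0.00012) and by 2.47 ± 0.25 in KO clones (adjusted p = 1.9e-05). Soat1, which esterifies cholesterol, rose by 0.59 ± 0.15 and 0.66 ± 0.15 (adjusted p = 0.0074 and 0.0031).

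Of 8 LXR receptors and targets, 2 rose and 0 fell in WT clones, and 2 rose and 2 fell in KO clones. Abca1, the cholesterol exporter, rose by 2.16 ± 0.58 in WT clones (adjusted p = 0.011) and by 3.56 ± 0.57 in KO clones (adjusted p = 0.00043). Of 8 genes for citrate and NADPH supply, 0 rose and 1 fell in WT clones and 1 rose and 1 fell in KO clones. The gene that fell was Idh1, a cytosolic source of NADPH, by 1.10 ± 0.23 (adjusted p = 0.0027) and 1.65 ± 0.24 (adjusted p = 0.00019). Of 17 genes for fatty acid activation, elongation and glycerolipids, 4 rose and 5 fell in WT clones and 4 rose and 9 fell in KO clones. Lpin1, a phosphatidate phosphatase, fell by 3.40 ± 0.30 and 3.41 ± 0.30 (adjusted p = 1.1e-05 and 8.4e-06). Gpam, which starts glycerolipid synthesis, fell by 0.99 ± 0.12 and 1.27 ± 0.12 (adjusted p = 6.6e-05 and 1e-05), while Acsl4, which activates polyunsaturated fatty acids, rose by 1.49 ± 0.18 and 1.76 ± 0.19 (adjusted p = 9.4e-05 and 2.5e-05). Of 9 genes on mevalonate side branches, 3 rose and 1 fell in WT clones and 3 rose and 0 fell in KO clones. Nus1, a subunit of the dolichol-making transferase, rose by 0.60 ± 0.11 (adjusted p = 0.001) and 0.97 ± 0.11 (adjusted p = 3.4e-05). A clone block, added for these lists after the data were seen, changed several counts. The LXR list then had 2 higher and 2 lower in WT clones and 3 and 4 in KO clones, the citrate and NADPH list 1 and 2 in WT clones and 2 and 2 in KO clones, and the fatty acid activation list 5 and 8 in WT clones. With KO 1A and KO 1B summed, the fatty acid activation list had 4 higher and 6 lower in KO clones and the LXR list 2 and 1. With library totals alone, the side-branch list had 0 higher and 2 lower in WT clones and 1 and 3 in KO clones, and the SREBP cleavage list 2 and 4 and 2 and 3.

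Between genotypes under stimulation, Abca1 was higher in KO clones (2.28 ± 0.54, adjusted p = 0.04). Pgrmc1, a heme-binding membrane protein named after its values were seen, was lower (-1.04 ± 0.19, adjusted p = 0.015). Both calls were lost without any single KO clone, with adjusted p of 0.054 to 0.22 for Abca1 and 0.062 to 0.13 for Pgrmc1. With KO 1A and 1B summed the adjusted p was 0.17 and 0.12. The Abca1 call was also lost without any single WT clone (0.057 to 0.068). By edgeR, 0 genes of the 6 lists were called in medium or in the difference of responses.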

How the data were processed

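The authors deposited 1 table of whole-number read counts per Ensembl gene for 12 libraries of RAW264.7 clones, 3 per group. The build was mm10 (GRCm38), and DESeq2 is named without a version, both per the submitters' processing notes. Neither aligner nor counter nor strandedness is given in the sources used here. Beside Fdps and Fdft1, exons of other genes overlap 13.2% of the exon length of Scap and 12.1% of that of Hmgcs1 and of Tm7sf2. GENCODE M21 named 12305 of 12483 IDs, and 178 stayed unnamed. The 36 members and all lists were chosen with earlier results of these data known.

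From the counts, edgeR 4.0.16 in R 4.3.3 kept 12231 genes with filterByExpr, scaled libraries by TMM and fitted 1 mean per group with robust quasi-likelihood (8 residual degrees of freedom, coefficient of variation 23.6%). The 5 comparisons were tested with Benjamini-Hochberg adjustment over all genes kept and called at an adjusted p below 0.05. Each SE is the size of the log2 fold change over the root of its F value. P-values measure the spread between clones of 1 line, which is small for KO 1A and 1B. The scripts were tested on simulated counts. Per-clone responses are differences of log2 (CPM + 1) and were not tested. The 95% counting intervals for Ch25h cover counting error only.

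Each clone gave both conditions, so clones pair the libraries of a response. Deviations of the medium and stimulated library of a clone from their group means correlated at 0.62, 0.68 and 0.62 in WT 1, 2 and 3 and at 0.37, 0.34 and 0.54 in KO 1A, 1B and 2. KO 1A in medium correlated with KO 1B under stimulation at 0.35, and KO 1B in medium with KO 1A under stimulation at 0.22. The other pairs of unlike clones of a genotype lay between -0.46 and -0.11, so pairing was less distinct for KO 1A and 1B. Blocking on clone reduced the residual degrees of freedom to 4. Other alternatives were RLE size factors, library totals, no filter or at least 10 CPM in 3 libraries, DESeq2 1.42.0, each clone left out, KO 1A and 1B summed, a test against a fold of 1.5 and a pseudocount of 0.1.

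Values in every library were given for members called between genotypes and for the 5 sterol, 5 fatty acid and 2 regulator genes with the smallest p in either response, and also for Hmgcs1, Msmo1 and Fasn, chosen after their values were seen. Since these genes were picked by p or by values of the same libraries, a lack of overlap between their libraries adds nothing to the calls. Of each further list, at most 3 genes with the smallest p were named. The rule for promoters, those of such members that hold the sterol element, named none, so the promoters printed were chosen after the motif search.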

Additional observations from a re-analysis of the deposited data

How the results depend on the processing

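Of 528 values of the 38 member results called, recomputed under 14 alternatives where a value could be had, 435 kept their direction and call, 91 lost the call and 2 changed sign. With library totals alone, Acly went to -0.02 in WT and -0.09 in KO clones, and Srebf1 and Ebp to -0.32 and -0.35 in KO clones. Calls among fatty acid genes then numbered 0 higher in WT and 0 in KO clones, calls among sterol genes 3 higher and 5 lower in KO clones, and calls lower in KO than WT clones 0 in medium and 1 under stimulation. Mean clone medians moved to -0.33 and -1.19 for sterol and fatty acid genes in WT clones and to 0.02 and -1.10 in KO clones. Against a fold of 1.5, 0 fatty acid genes were higher in WT clones, 3 sterol genes were higher and 1 lower in KO clones, 0 and 3 fatty acid genes were higher and lower there, and 0 genes were called between genotypes in medium or under stimulation. With KO 1A and 1B summed, 3 sterol genes were higher, 1 fatty acid gene higher and 3 lower in KO clones, and 0 were called between genotypes. DESeq2 called 2 genes lower in medium, 2 higher under stimulation and 1 (Lss) in the difference of responses, and RLE size factors called 1 lower under stimulation. The replicate block (clone) raised fatty acid calls lower in WT clones to 8. Beside the member calls it changed, named above, it took none of the called responses away. With each clone left out in turn, calls ranged from 1 to 2 (sterol higher, WT), 0 to 1 (fatty acid higher, WT), 3 to 8 (sterol higher, KO), 1 to 2 and 3 to 6 (fatty acid higher and lower, KO), 0 to 2 (lower in medium), and 0 to 2 higher and 0 to 2 lower under stimulation. The settings of the 6 further lists, of Abca1 and Pgrmc1 and of the summed levels were chosen after seeing the data. The causes were not tested. Except where given above, shares of all genes called under an alternative were not counted. Between clones, the coefficient of variation of 23.6%, or 11.7% with clone as a block, limits what 3 clones a group can show.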
